A study of Mus musculus with 16 samples.

Results

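Cxcr3, Ccl5 and Nkg7 are genes of Th1 homing and cytotoxic effector function, and each was read here as 1 probe set of a mouse whole transcript array. They make up 3 of the 41345 probe sets measured. The genes were chosen by their symbols in the authors' deposited 2-fold tables, and all 3 stand in the TCRM table and none in the ENDO table. The TCRM difference between infarction and sham arrays therefore chose them, so in TCRM cells it is given as a description without a test. The ENDO arrays did not enter the TCRM table, and the ENDO difference was tested. The genes were picked with earlier results of these data known, which limits that test as well.

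Th1 cells are helper T cells that make interferon gamma and depend on the transcription factor T-bet. CXCR3 is a chemokine receptor of such cells that follows interferon-induced ligands into inflamed tissue. CCL5, also called RANTES, is a secreted chemokine that attracts T cells and monocytes. NKG7 is a membrane protein of cytotoxic granules, known in mice to take part in granule release by natural killer cells and T cells.

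TCRM cells are myosin-specific CD4+ T cells (Thy1.1) taken from naive T cell receptor transgenic donors and given to wild-type male BALB/c mice (Thy1.2) aged 8 to 12 weeks, 1 day before the operation. ENDO cells are the CD4+ T cells of the recipients themselves, taken from the same animals as the TCRM cells. Both were sorted at day 7 from mediastinal lymph nodes, the nodes that drain the heart, after ligation of a coronary artery (infarction) or after thoracotomy alone (sham). There were 5 arrays of the TCRM infarction group, 3 of the TCRM sham group, 5 of the ENDO infarction group and 3 of the ENDO sham group. TCRM cells come from donors with 1 transgenic receptor and were transferred, which limits them as a model of a mixed response of resident cells. In each group, fewer cells that express a gene and less RNA per cell cannot be told apart.

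The values are log2 signal, on which a difference of 1 is a doubling. Median log2 signal lay between 5.37 and 5.43 on TCRM arrays and between 5.61 and 5.79 on ENDO arrays, and the lowest values also differed (1.47 to 1.74 and 2.27 to 2.37), so both were taken to be normalized apart, and their levels were not tested against each other. TCRM sham array 3 and ENDO infarction array 5 had the lowest mean correlation with the other arrays of their population (0.953 and 0.891). The arrays titled infarction 5 carry a source name that says sham. Averages over the groups of the titles matched the authors' averages within 0.01 for 196 of 196 TCRM and 274 of 274 ENDO probe sets, and the titles were used. None of the 7 T cell markers looked for (such as Cd3e and Cd4), of the 7 CD8 and NK markers or of the 5 myeloid markers carries a name in the tables used here, so the labelled cell type was not checked against them. The sort was for CD4+ TCRbeta+ cells with a stated purity above 98%.

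The 250 bases before the annotated start are shown for Cxcr3 and Nkg7, the 2 of the 3 genes that matched the RefSeq promoter table (GRCm38.p6). The Cxcr3 window is chrX:101734148-101734397 on the minus strand and the Nkg7 window is chr7:43436888-43437137 on the plus strand, both 5′ to 3′ in the direction of the gene. Capitals mark matches on either strand to a T-box site (GGTGTGA), a RUNX core (TGTGGT), an AP-1 site (TGANTCA) or a STAT site (TTCNNNGAA), where N is any base.
Cxcr3: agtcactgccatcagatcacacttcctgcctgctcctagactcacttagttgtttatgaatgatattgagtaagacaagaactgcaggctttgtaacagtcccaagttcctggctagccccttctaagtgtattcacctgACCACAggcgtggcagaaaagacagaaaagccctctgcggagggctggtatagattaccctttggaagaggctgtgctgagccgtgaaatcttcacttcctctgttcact
Nkg7: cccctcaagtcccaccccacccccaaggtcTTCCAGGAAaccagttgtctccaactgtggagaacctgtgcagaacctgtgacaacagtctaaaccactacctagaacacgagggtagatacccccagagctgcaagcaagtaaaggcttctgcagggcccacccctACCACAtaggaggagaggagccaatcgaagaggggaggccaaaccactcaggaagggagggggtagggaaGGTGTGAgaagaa

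The Nkg7 window held the T-box letters 13 to 7 bases before the start, a RUNX core 83 to 78 bases before it and a STAT match 220 to 212 bases before it. The Cxcr3 window held a RUNX core 110 to 105 bases before the start. None of the marked matches overlap. T-bet is a T-box factor, and RUNX proteins act beside it in Th1 and cytotoxic cells. Among 32817 promoter windows of the same length, 3.33% held the T-box letters, 14.04% the RUNX core, 6.75% the AP-1 site and 7.01% the STAT site. The motifs were chosen after the sequences of both windows had been seen, so a match supports nothing. It describes letters in this window and is not a binding site.

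Cxcr3, the homing receptor, was higher after infarction in TCRM cells. Its log2 signal was 8.33, 8.33, 8.27, 8.22 and 8.21 on TCRM infarction arrays 1 to 5, against 6.89, 7.16 and 7.26 on TCRM sham arrays 1 to 3. The groups were apart by 0.95 between the lowest infarction and the highest sham array. Infarction arrays averaged 8.27 ± 0.06 and sham arrays 7.10 ± 0.19 (log2, SD, n = 5 and n = 3), a difference of 1.17 ± 0.14 (SE), or 2.25-fold.

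Ccl5, the chemokine, was also higher on average in TCRM cells after infarction, but its arrays overlapped. It measured a log2 signal of 9.06, 9.69, 7.59, 8.45 and 8.76 on TCRM infarction arrays 1 to 5, against 7.60, 7.75 and 6.85 on TCRM sham arrays 1 to 3. Infarction array 3 lay below sham arrays 1 and 2, and the other 4 infarction arrays lay above all sham arrays. Infarction arrays averaged 8.71 ± 0.78 and sham arrays 7.40 ± 0.48 (log2, SD, n = 5 and n = 3), a difference of 1.31 ± 0.35 (SE), or 2.48-fold. In the authors' deposited table, whose averages give outlying arrays less weight, the Ccl5 sham average was 7.67 and the fold 2.19. Without sham array 3, the lowest, the difference here was 1.03, and without infarction array 3 it was 1.59.

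Nkg7, the granule protein, had a log2 signal of 9.42, 9.08, 8.54, 8.99 and 8.69 on TCRM infarction arrays 1 to 5, against 8.42, 7.87 and 7.36 on TCRM sham arrays 1 to 3. All infarction arrays were above all sham arrays, by a gap of 0.12 between infarction array 3 and sham array 1. Infarction arrays averaged 8.95 ± 0.35 and sham arrays 7.88 ± 0.53 (log2, SD, n = 5 and n = 3). The difference was 1.06 ± 0.24 (SE), or 2.09-fold. Such separation upwards, found for Cxcr3 and Nkg7, held for 5.64% of the 28941 probe sets that passed a filter on dim signal, and nothing is read from it here because this contrast chose the genes. All 3 genes passed that filter through their mean over all 16 arrays.

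**Figure D1:**
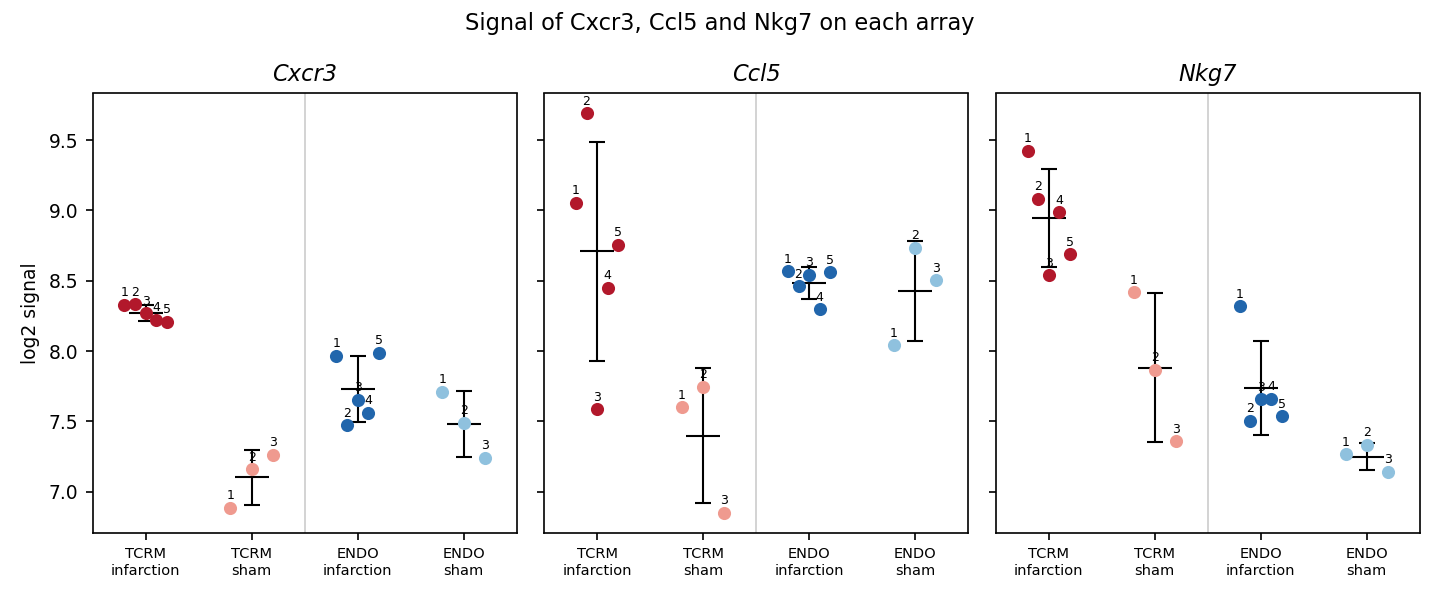
Log2 signal (vertical axis) of Cxcr3, Ccl5 and Nkg7 on each array, by group, with the array number beside each point, a black dash for the mean and bars for the SD. The 5 TCRM infarction arrays lie close together for Cxcr3 (8.21 to 8.33) and far apart for Ccl5 (7.59 to 9.69). Within each population every Nkg7 infarction array is higher than every sham array. Such separation held for 5.64% of tested probe sets in TCRM and 3.02% in ENDO cells, and the TCRM values were part of what chose the genes.

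The values that chose the genes were close to the authors' limit of 2-fold. In the authors' deposited table Cxcr3 and Ccl5 each had a fold of 2.19 and Nkg7 one of 2.10, while the lowest fold among its 153 rises was 2.01 and the median 2.54. Cd22 had the same fold as Cxcr3 and Ccl5 (2.19) in that table, Vamp5 (2.20) and Prdm1 (2.18) stood next to these 3, and Zan (2.11) and Nf2 (2.09) stood next to Nkg7. The folds were alike but the p-values in the authors' deposited table were not. They were 1.2e-05 for Cxcr3, the third lowest of 196 probe sets, 0.013 for Nkg7 and 0.0412 for Ccl5. The authors' false discovery rates in that table were 0.0623, 0.269 and 0.357.

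The spread among TCRM infarction arrays differed between the genes. The SD of Cxcr3 was 0.06, and 3.72% of all tested probe sets had a smaller one in this group. The SD of Ccl5 was 0.78, and 98.6% had a smaller one. The SD of Nkg7 was 0.35, with 87.1% smaller. Among ENDO infarction arrays the order of the genes was another. There the SD was 0.24 for Cxcr3, with 40.1% of probe sets smaller, 0.11 for Ccl5, with 8.46% smaller, and 0.33 for Nkg7, with 60.7% smaller. The median SD of all tested probe sets was 0.16 in the TCRM and 0.28 in the ENDO infarction group. Set only against probe sets within 0.5 log2 of the mean of each gene, the shares with a smaller SD changed. Among TCRM infarction arrays they were 3.37% for Cxcr3, 99.6% for Ccl5 and 91.7% for Nkg7. Among ENDO infarction arrays they were 20.5% for Cxcr3, 1.21% for Ccl5 and 41.3% for Nkg7. The table that chose the genes also required p under 0.05 on the TCRM arrays, which depends on their spread. These spreads are a description of 5 arrays a group, and whether they differ between populations was not tested.

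**Figure D2:**
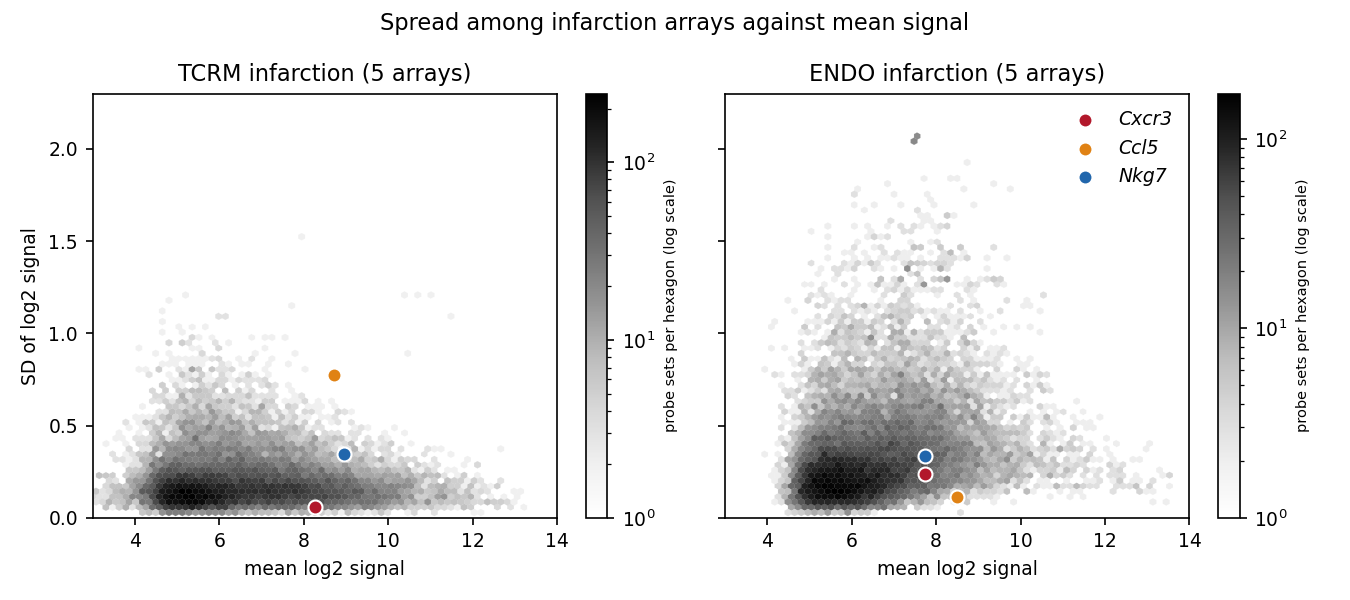
Standard deviation of log2 signal (vertical axis) against mean log2 signal (horizontal axis) over the 5 infarction arrays of TCRM cells (left) and of ENDO cells (right), with all tested probe sets in grey and the 3 genes as coloured points. Ccl5 is at the upper edge of its level among TCRM arrays (SD 0.78) and at the lower edge among ENDO arrays (SD 0.11), while Cxcr3 is at the lower edge among TCRM arrays (SD 0.06).

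Deviations of Ccl5 and Nkg7 from their group means went together on TCRM arrays more than those of either with Cxcr3. TCRM infarction array 3 was the lowest of its group and TCRM sham array 3 the lowest of its group for both Ccl5 and Nkg7. For Cxcr3, TCRM sham array 3 was the highest of its group. Over the 8 TCRM arrays the Pearson correlation of these deviations was 0.65 for Ccl5 with Nkg7, -0.04 for Cxcr3 with Ccl5 and -0.49 for Cxcr3 with Nkg7. Over the 8 ENDO arrays it was 0.16, -0.10 and 0.50 for the same pairs. Nkg7 on ENDO infarction array 1 stood far above its group (8.32, the others 7.50 to 7.66), and correlations without that array were not calculated. The points share the scaling of their array, and the values are a description with no test.

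In ENDO cells no gene of the 3 passed the test, against 0.888% of the 28941 tested probe sets that did (limma, Benjamini-Hochberg adjusted p under 0.05, either direction). That share comes from a fit whose spread is shared by both populations, and with the ENDO arrays alone 0 probe sets passed. Of the 3 genes, Nkg7 came nearest to passing. It measured a log2 signal of 8.32, 7.50, 7.66, 7.66 and 7.54 on ENDO infarction arrays 1 to 5, against 7.27, 7.33 and 7.14 on ENDO sham arrays 1 to 3. Here too every infarction array was higher than every sham array, by a gap of 0.17. Separation upwards of this kind held for 3.02% of the tested probe sets. Infarction arrays averaged 7.74 ± 0.33 and sham arrays 7.25 ± 0.10 (log2, SD, n = 5 and n = 3).

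The ENDO difference for Nkg7 was 0.49 ± 0.24 (log2, SE), or 1.40-fold with a 95% confidence interval of 0.976 to 2.01, and limma's adjusted p was 0.482 (0.0654 before adjustment). An exact permutation test of Nkg7 alone over the 8 ENDO arrays gave a 2-sided p of 0.0357, with the smaller tail doubled. This is the smallest that such doubling allows with 5 against 3 arrays. It restates the separation of the arrays and is not adjusted for the 3 genes tested. Infarction array 1 was far above the other 4, which lay between 7.50 and 7.66. Without infarction array 1 the difference was 0.34, and limma's adjusted p was 0.74.

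Cxcr3 had a log2 signal of 7.97, 7.47, 7.66, 7.56 and 7.99 on ENDO infarction arrays 1 to 5, against 7.71, 7.49 and 7.24 on ENDO sham arrays 1 to 3. Infarction arrays 1 and 5 lay above all sham arrays and the other 3 lay among them. Infarction arrays averaged 7.73 ± 0.24 and sham arrays 7.48 ± 0.24 (log2, SD, n = 5 and n = 3). The difference was 0.25 ± 0.14 (SE), with a 95% confidence interval of -0.06 to 0.56 and an adjusted p of 0.571 by limma. With limma on the ENDO arrays alone the SE was larger, at 0.18, and the adjusted p was 0.816. The exact permutation test gave a 2-sided p of 0.25. The difference was 0.128 without ENDO sham array 3, 0.005 with array weights and 0.056 with infarction array 5 counted as sham.

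Ccl5 had a log2 signal of 8.57, 8.46, 8.54, 8.30 and 8.56 on ENDO infarction arrays 1 to 5, against 8.04, 8.73 and 8.50 on ENDO sham arrays 1 to 3. Sham array 2 was the highest of all 8 arrays and sham array 1 the lowest, with every infarction array between them. Infarction arrays averaged 8.49 ± 0.11 and sham arrays 8.43 ± 0.35 (log2, SD, n = 5 and n = 3). The difference was 0.06 ± 0.35 (SE), with a 95% confidence interval of -0.68 to 0.80 and an adjusted p of 0.979 by limma. The exact permutation test gave a 2-sided p of 0.679. The SE draws on the spread of all 16 arrays, TCRM arrays included, and was 0.17 in a fit of the ENDO arrays alone. The difference turned to -0.13 without ENDO sham array 1.

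**Figure D3:**
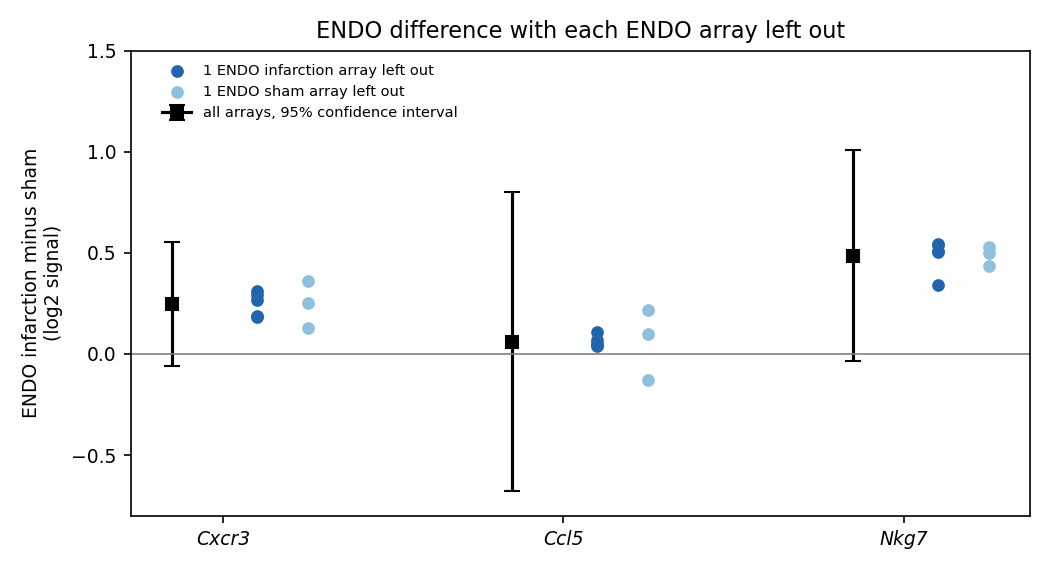
Infarction minus sham difference in ENDO cells (vertical axis, log2 signal) for each gene, as a black square with its 95% confidence interval for all arrays and as blue points with 1 ENDO infarction or sham array left out. The Nkg7 points run from 0.34 to 0.55 and stay above 0, while 1 Ccl5 point falls to -0.13.

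Side by side, the difference between infarction and sham was 1.17 in TCRM and 0.25 in ENDO cells for Cxcr3, 1.31 in TCRM and 0.06 in ENDO cells for Ccl5, and 1.06 in TCRM and 0.49 in ENDO cells for Nkg7 (all log2). A test of the difference of responses would use the contrast that chose the genes, so none was made. The TCRM values passed a 2-fold limit on these same arrays, a selection that favours large differences.

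As levels cannot be set against each other between the populations, the position of each gene among all probe sets of its own array is given instead. It depends on the probes of the gene and is used here for 1 gene at a time. The median percentile of Cxcr3 was 89.1 on TCRM infarction, 78.9 on TCRM sham, 85.1 on ENDO infarction and 83.4 on ENDO sham arrays. That of Ccl5 was 92.2 on TCRM infarction, 83.1 on TCRM sham, 92.0 on ENDO infarction and 93.2 on ENDO sham arrays. That of Nkg7 was 93.7 on TCRM infarction, 86.3 on TCRM sham, 86.1 on ENDO infarction and 81.1 on ENDO sham arrays.

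For Ccl5 the TCRM sham arrays lay between percentiles 75.4 and 85.2, against 89.5 to 93.6 on ENDO sham arrays, and TCRM infarction array 3 lay among the TCRM sham arrays at 83.1. For Nkg7 the TCRM infarction arrays lay highest, between percentiles 91.2 and 95.5, against 82.9 to 90.2 on ENDO infarction arrays. For Cxcr3 the TCRM sham arrays lay lowest, between 75.2 and 80.4, against 82.0 to 86.4 on ENDO sham arrays. The sham and infarction values of TCRM cells were part of what chose the genes, so these positions are a description.

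Other genes of the same programmes could be followed only where the authors' tables name them. These list only probe sets past 2-fold with p under 0.05, so a gene that did not change could not appear. The genes followed are therefore ones that had changed, and they do not show how the rest of each list behaved. Of the 24 genes of the Th1 list, 3 were named, and Bhlhe40 was the one besides Cxcr3 and Ccl5. Of the 21 genes of the cytotoxic list, 4 were named, and Cst7 and Slamf7 were those besides Nkg7 and Ccl5. Of the 10 genes on the list of ligands and receptors that pair with CXCR3 or CCL5, the 2 named were Cxcr3 and Ccl5 themselves. No gene of the list of 20 other homing receptors or of the list of 11 genes of naive and resting T cells was named. Tbx21 (T-bet), Ifng, Gzmb and Prf1 are named in neither of the authors' tables, and their signal was not analysed here.

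Bhlhe40 encodes a transcription factor that supports cytokine production by helper T cells. It had a log2 signal of 8.45 ± 0.13 (SD, n = 5) on TCRM infarction arrays and 7.03 ± 0.56 (SD, n = 3) on TCRM sham arrays, a difference of 1.42 ± 0.20 (SE). Cst7 encodes cystatin F, an inhibitor of cathepsins found in cytotoxic cells. Its log2 signal was 8.57 ± 0.08 (SD, n = 5) on TCRM infarction arrays and 7.10 ± 0.33 (SD, n = 3) on TCRM sham arrays, a difference of 1.47 ± 0.15 (SE). Both had all TCRM infarction arrays above all TCRM sham arrays, as did 5.64% of all tested probe sets. Nothing is read from this separation, because the same contrast put these genes in the authors' table. Slamf7 encodes a receptor of the SLAM family found on natural killer cells, plasma cells and cytotoxic T cells. Its log2 signal was 8.57, 8.90, 8.31, 8.50 and 8.80 on TCRM infarction arrays 1 to 5, against 8.55, 7.52 and 7.12 on TCRM sham arrays 1 to 3. Slamf7 infarction arrays 3 and 4 lay below sham array 1, the array that was also highest of its group for Nkg7.

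In ENDO cells none of these 3 passed. The differences were -0.01 ± 0.20 (log2, SE) for Bhlhe40, 0.18 ± 0.15 for Cst7 and -0.19 ± 0.29 for Slamf7, with limma's adjusted p of 0.996, 0.748 and 0.885. As for the members, the authors' TCRM table gave these genes their names, so the TCRM values are a description. The ENDO differences did not enter that table, but the gene lists were chosen with earlier results of these data known. Their SE and p also draw on the spread of the TCRM arrays, and both populations came from the same animals. Of the 6 named genes of both lists, members included, none passed in ENDO cells, against the 0.888% of all tested probe sets given above. The median ENDO difference was 0.12 for these 6 genes and 0.005 for all tested probe sets (log2), with 4 of the 6 and 50.9% of all tested above 0.

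**Figure D4:**
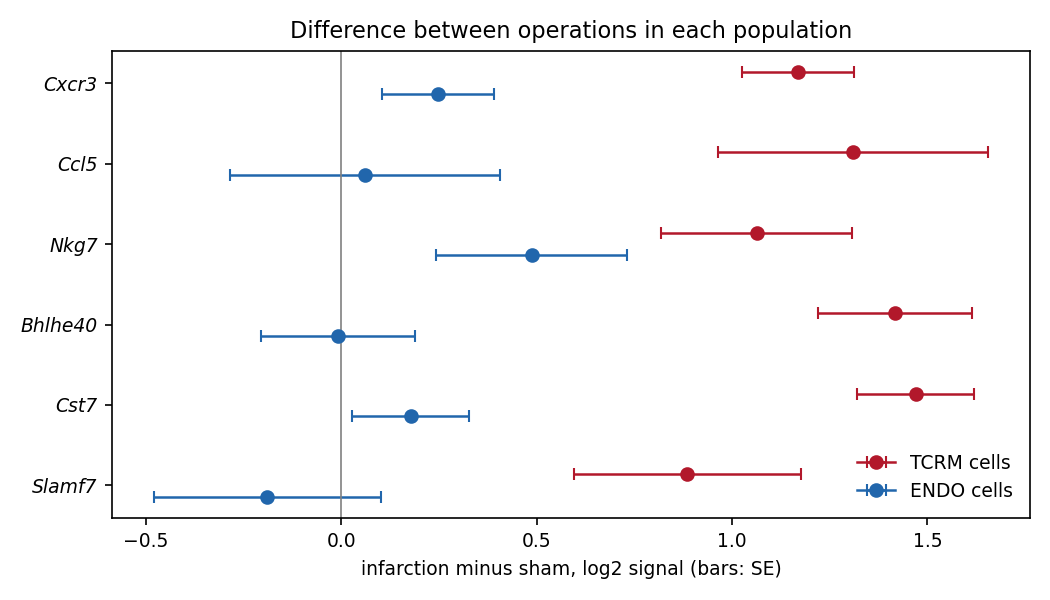
Infarction minus sham difference in log2 signal (horizontal axis) for Cxcr3, Ccl5 and Nkg7 and for Bhlhe40, Cst7 and Slamf7, in TCRM cells (red) and ENDO cells (blue), with bars for the SE. The TCRM differences lie between 0.89 and 1.47 and were part of what chose the genes, while the ENDO differences lie between -0.19 and 0.49.

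Markers of other cell types were named in 2 cases through the TCRM table, Cd22 among 5 B cell markers and Prdm1 among 4 plasma cell markers. Cd22 had a log2 signal of 7.16 ± 0.09 (SD, n = 5) on TCRM infarction arrays and 5.99 ± 0.42 (SD, n = 3) on TCRM sham arrays. On ENDO arrays Cd22 had 5.84 ± 0.06 with infarction (SD, n = 5) and 5.61 ± 0.16 with sham operation (SD, n = 3). Prdm1, which T cells also use, was 6.65 ± 0.34 (SD, n = 5) on TCRM infarction arrays and 5.80 ± 0.38 (SD, n = 3) on TCRM sham arrays. On ENDO arrays Prdm1 had 6.39 ± 0.13 with infarction (SD, n = 5) and 6.13 ± 0.20 with sham operation (SD, n = 3). Nkg7 and Ccl5 are known from natural killer and CD8 T cells as well as from CD4 cells. The defining markers of those cells have no named probe set, and their part in the results was not tested.

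Among the 153 other named probe sets, the ones whose within-group deviations were most like those of each gene were sought over all 16 arrays. For Cxcr3 these were Cyfip1 (Pearson r = 0.72), Zdhhc2 (0.68) and Ttc39c (0.67). For Ccl5 they were Raph1 (0.84), Popdc2 (0.77) and Ptpn13 (0.75). For Nkg7 they were Gstt2 (0.91), Rilpl2 (0.88) and Plk3 (0.86). The likeness for Ccl5 came mostly from TCRM arrays, with r of 0.93 over the 8 TCRM and 0.46 over the 8 ENDO arrays for Raph1. For Gstt2 with Nkg7, r was 0.954 over TCRM and 0.825 over ENDO arrays. The widest Nkg7 deviation on ENDO arrays was that of infarction array 1 (8.32, against 7.50 to 7.66 on the other infarction arrays). The ENDO correlation without that array was not calculated. All of these genes are named through the authors' TCRM table, and the correlations are the highest of 153, given with no test.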

How the data were processed

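Per the submitters' processing notes, the tools were Affymetrix Expression Console and Transcriptome Analysis Console. Their versions and how probes were summarised are not given in the sources used. The deposited value table holds log2 signal per probe set for 16 arrays. A further deposited table for each population lists probe sets past 2-fold with p under 0.05, with average log2 signal, a linear fold, p-values and false discovery rates written with decimal commas, per the file headers.

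The members and gene lists were chosen with earlier results of these data known. A filter at the 30th percentile of mean signal (log2 4.72) removed 12404 of 41345 probe sets and kept 28941. The fit had 1 mean for each group over the 16 arrays (limma 3.58.1, R 4.3.3), with 2-sided p-values adjusted by the Benjamini-Hochberg method and a threshold of 0.05. The fit was tested on simulated data. Figures used matplotlib 3.10.9. The series design gives 5 animals with infarction and 3 with sham operation. The number of arrays limits the precision.

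Besides the members, the text names genes of the lists that the tables name, the genes next to each member by fold in the TCRM table, and the 3 likest named probe sets (no gene models, clones, receptor segments or small RNAs). The same numbers stand in the titles of both populations. For same-numbered arrays the correlation of deviations from group means lay between -0.089 and 0.077 over 8 pairs, with 0 above 0.1. This cannot exclude pairing, because arrays with different numbers were not compared and both populations came from the same animals. The main fit did not take the numbers as pairs. Alternatives were the filter, scaling, weights, spread, labels, replicate block, the arrays of 1 population alone, each array left out and an exact permutation test.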

Additional observations from a re-analysis of the deposited data

Results flagged for a closer look

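Nkg7 on ENDO infarction array 1 stood far from the rest of its group. Its log2 signal was 8.32, while the other 4 arrays lay between 7.50 and 7.66, and the gap divided by the whole range was 0.808, above the limit of 0.71 for 5 arrays. Of 6 such measures (3 genes in both infarction groups) 1 was past its limit. Chance gives about 1 in 20 for each single measure, so 1 of 6 is not read as an excess. On the same array Cxcr3 was 7.97, second highest of its group, and Ccl5 was 8.57, the highest of a group that began at 8.30. The reason for the high Nkg7 value was not tested.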

How the results depend on the processing

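In ENDO cells no member passed limma's threshold under any alternative fit. Over those fits the difference lay between 0.005 (array weights) and 0.282 for Cxcr3, 0.007 and 0.237 for Ccl5 and 0.398 and 0.521 for Nkg7 (log2). With 1 array left out it lay between 0.128 and 0.363 for Cxcr3, -0.131 and 0.215 for Ccl5 and 0.341 and 0.545 for Nkg7. The one change of sign, to -0.131 for Ccl5, came without ENDO sham array 1, the lowest of its group. For Nkg7 (0.487) the exact permutation test gave an unadjusted p of 0.0357, and limma on the same 8 ENDO arrays alone gave 0.0379 before and 0.583 after adjustment.

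The number of probe sets past the threshold in ENDO cells, 257 as reported, was 448 with all 16 arrays quantile normalized again, 1529 with array weights and 0 with the ENDO arrays alone (limma), and between 51 and 640 with 1 array left out, so the share of 0.888% is uncertain. The median residual SD of the tested probe sets was 0.197 on TCRM and 0.272 on ENDO arrays (log2). The cause of the uncertainty was not tested. With the replicate block it was 266, and the block changed no call of a member.

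In TCRM cells the difference was 1.003 for Cxcr3 and 0.969 for Nkg7 with all 16 arrays quantile normalized again. For Nkg7 it was 0.998 with quantile normalization within each population and 0.978 with array weights. Nkg7 was thus under 2-fold in these fits, while Cxcr3 and Ccl5 stayed above it. With infarction array 5 counted as sham the TCRM difference was 0.909 for Cxcr3, 0.957 for Ccl5 and 0.926 for Nkg7, all under 2-fold. With 1 array left out it lay between 1.06 and 1.25 for Cxcr3, 1.03 and 1.59 for Ccl5 and 0.801 and 1.33 for Nkg7. Signal over background is not known from these files, and 3 sham arrays limit each comparison.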
